A study of Mus musculus with 6 samples.

Results

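Cytosolic ribosomal protein genes encode the protein part of the ribosomes that translate nuclear messages in the cytoplasm. They were taken from the probe annotation as every symbol that begins with Rpl, Rps or Rplp followed by a digit, with S6 kinase symbols and pseudogene symbols left out. Of 18193 genes with a probe set of a single gene symbol, 49 met this rule, and each was read through its brightest such probe set, by mean log2(signal + 16). By their symbols, 24 of them belong to the large subunit, 2 more (Rplp0 and Rplp2) to its stalk, and 22 to the small subunit. The remaining symbol, Rps19bp1, met the rule, although it names a nuclear binding partner of Rps19 and no ribosomal protein. A further 110 probe sets join a ribosomal protein symbol with other symbols and are counted separately, so the family is not complete here.

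Hearts of male C57BL/6J mice were profiled on 6 Affymetrix arrays in 3 groups of 2. The high FASN group came from a transgenic line with strong cardiac expression of fatty acid synthase (FASN), which makes palmitate, and the low FASN group from another line with weak expression. In both lines the alpha-MHC promoter, active in heart muscle cells, drives the transgene. The B6 control group holds age-matched mice, with no age stated in the labels. Each FASN level is 1 line, so the level and the line cannot be told apart. A tissue label of all 6 arrays, controls included, calls the heart transgenic, and groups were therefore read from the titles. Whether a group's 2 arrays stand for different animals is not recorded, and every p-value therefore reflects array-to-array spread that may be purely technical. In whole hearts, fewer cells of a type and less RNA per cell cannot be told apart.

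Every eukaryotic ribosome needs nearly all of these proteins in equal numbers, and cells join them with ribosomal RNA in the nucleolus. Their messages usually begin with a C and a run of pyrimidines, the 5′ terminal oligopyrimidine (TOP) tract, through which the mTORC1 kinase pathway and the RNA-binding protein LARP1 control how strongly they are translated. In heart muscle, making more ribosomes is a known part of growth of the muscle cells. The message level measured on an array does not report that translational control.

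The start regions of 9 members named below are printed here so that a pyrimidine tract at or near the annotated start can be seen, where present. They come from RefSeq on build GRCm38.p6, run from 30 bases before the annotated start to 20 after it, and read 5′ to 3′ on the strand of the gene. Capitals mark a C followed by at least 4 pyrimidines (C or T) whose C lies within 5 bases of the annotated start. A marked tract need not begin the annotated message. That of Rpl19 ends before the annotated start, and that of Rpl22l1 begins 3 bases after it. For Rpl19 and Rpl3l, which have 2 promoters each, a promoter with such a tract was preferred. Rps19, which has no such tract, is not shown. The 5 genes shown first have such a tract and are Rps9 (chr7:3704011-3704060, plus strand), Rplp2 (chr7:141447621-141447670, plus), Rps10 (chr17:27635225-27635274, minus), Rpl19 (chr11:98026680-98026729, plus) and Rpl22l1 (chr3:28805478-28805527, plus).
Rps9: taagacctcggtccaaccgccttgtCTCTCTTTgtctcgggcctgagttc
Rplp2: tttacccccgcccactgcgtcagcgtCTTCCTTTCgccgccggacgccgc
Rps10: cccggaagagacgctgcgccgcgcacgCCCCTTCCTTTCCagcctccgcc
Rpl19: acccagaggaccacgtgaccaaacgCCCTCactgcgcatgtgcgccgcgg
Rpl22l1: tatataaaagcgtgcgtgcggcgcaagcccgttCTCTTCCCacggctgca
The other 4 have no such tract whose C lies within 5 bases of the annotated start, which says only that. They are Rps4x (chrX:102189372-102189421, minus), Rpl41 (chr10:128549149-128549198, minus), Rpl7l1 (chr17:46782637-46782686, minus) and Rpl3l (chr17:24727796-24727845, plus).
Rps4x: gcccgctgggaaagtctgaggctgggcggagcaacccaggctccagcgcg
Rpl41: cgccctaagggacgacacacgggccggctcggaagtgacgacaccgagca
Rpl7l1: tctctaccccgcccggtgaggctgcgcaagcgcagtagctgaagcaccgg
Rpl3l: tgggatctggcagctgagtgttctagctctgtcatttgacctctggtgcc

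A RefSeq promoter was at hand for 43 of the 49 members. The tract began exactly at the annotated start in 8 of them (18.6%), against 813 of 27025 genes (3.01%). With the C allowed within 5 bases of the start, 20 members (46.5%) and 5718 genes (21.2%) held it. The letters CCGGAAG, the core of a site for ETS family factors, were searched on both strands from 250 bases before to 50 after the start and stood in 20 members (46.5%), against 2683 genes (9.93%). A match is a description of the sequence and not evidence that a factor binds there.

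The signals are linear, in arbitrary units, and scaled by the authors so that every array has nearly the same mean. The probe set of Fasn separated the groups, with signals of 2268 and 2104 in high FASN, 462 and 481 in low FASN, and 213 and 187 in B6 control hearts. Arrays of the same group correlated at 0.987 to 0.99 across tested probe sets, and arrays of different groups at 0.969 to 0.977, as a description only. Defining heart muscle markers were bright on every array (Myh6 read 27487 to 38169). The ratio of 3′ to 5′ signal, a measure of RNA integrity, was 2.52 and 2.4 for Actb in high FASN, 2.31 and 2.32 in low FASN, and 2.62 and 2.71 in B6 control hearts. The groups did not overlap in this ratio, and its part in the results below was not tested.

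Most members were among the brightest probe sets on the array. The mean log2(signal + 16) was at least 13 for 28 members and under 10 for 13. Testing was limited to probe sets whose mean reached the median over the array, and 47 of the 49 members did. Rpl39l, a paralogue of Rpl39, lay below that limit at 22.1 and 11.7 in high FASN, 46 and 52.1 in low FASN, and 85.4 and 47.8 in B6 control hearts. Rps16, a small subunit protein, read between 0.683 and 1.95 on its only single-symbol probe set, which gives no usable level. Levels of different probe sets are not compared, because probes differ in how strongly they bind.

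All differences below are on the log2(signal + 16) scale, on which dim genes appear to change less than they do. Differences were tested with limma over 22519 probe sets, and a member was called when its Benjamini-Hochberg adjusted p was below 0.05.

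In high FASN against B6 control hearts, ribosomal protein messages leaned higher. Of the 47 tested members, 13 rose and 2 fell, while 8.18% of all tested probe sets rose and 6.18% fell. Among 458 probe sets with no ribosomal protein symbol and a mean log2 of at least 13, 93 rose and 38 fell. The median difference of the members was 0.12, against 0.04 for all tested probe sets. Both arrays of the high line lay above both controls for 28 members and below them for 3, and the arrays overlapped for 16. The same separation was found upwards in 32.2% and downwards in 23.9% of all tested probe sets. The called differences were small, with 0.35 for Rps4x as the highest and -0.34 for Rps4l as the lowest. Leaving out 1 array at a time left between 2 rises (without the second B6 control array) and 23 (without the second high FASN array), where 3.53% and 8.49% of all tested probe sets rose. Without the intensity trend of the variance model 0 members were called by limma, with 7 higher and 2 lower at an unadjusted p below 0.05, against 3.18% of all tested probe sets called higher and 2.3% lower.

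In low FASN against B6 control hearts the deposited signals leaned the other way, a direction that median centring kept and that quantile normalization and cyclic loess turned. There 8 members fell and 1 rose, against 10.8% and 13.5% of all tested probe sets, and the median was -0.06, against 0.02 for all. After quantile normalization 8 rose and 1 fell (median 0.03), against 12.4% and 11.5% of all tested probe sets, and after cyclic loess 7 rose and 1 fell (median 0.04), against 12.6% and 11.2%. Both low FASN arrays lay below both controls for 24 members (30.3% of all tested probe sets did so) and above them for 12 (34.7%). Leaving out 1 array at a time left between 1 fall (without the first low FASN array or either B6 control array) and 15 (without either high FASN array). The share of all tested probe sets that fell was 5.89% to 6.32% in the first 3 of these fits and 13.1% in the other two. Without the intensity trend the falls numbered 1, against 6.29% of all.

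Between the transgenic lines, 26 members rose and 2 fell in high FASN relative to low FASN hearts, against 9.69% and 8.87% of all tested probe sets. Of 458 probe sets with no ribosomal protein symbol and a mean log2 of at least 13, 237 rose and 19 fell there. The members' median was 0.18, against 0.01 for all tested probe sets. Both high FASN arrays lay above both low FASN arrays for 35 members (30.0% of all tested probe sets) and below them for 5 (29.2%). After quantile normalization 6 rose and 4 fell, with a median of 0.04, against 8.81% and 9.14% of all tested probe sets. Without either low FASN array 5 rose and 0 fell by limma (3.8% or 3.83% of all rose), and without the intensity trend 1 rose and 1 fell (3.0% and 3.43% of all). The 3 comparisons share arrays pairwise, so their members' values are given side by side and no overlap between them is read as a result.

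**Figure D1:**
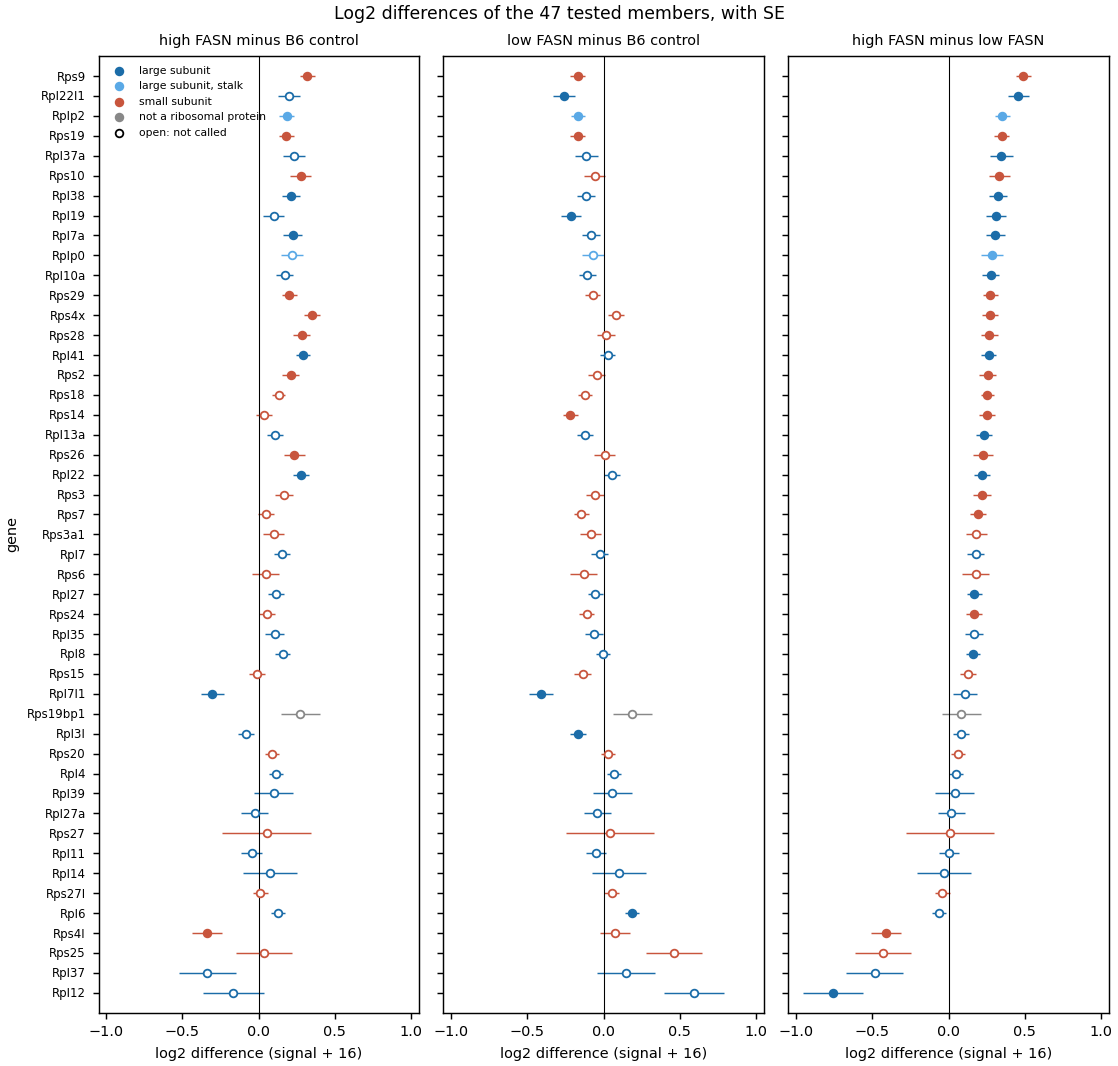
Log2 difference of each of the 47 tested members (x axis, log2(signal + 16), points with SE) in 3 comparisons, sorted by the difference between high FASN and low FASN hearts. Filled points have an adjusted p below 0.05: 13 higher and 2 lower in high FASN against B6 control, 1 and 8 in low FASN against B6 control (8 and 1 after quantile normalization), and 26 and 2 in high FASN against low FASN.

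Counts by subunit are to be read against the shares of all tested probe sets that rose and fell, which were 8.18% and 6.18% in high FASN against B6 control, 13.5% and 10.8% in low FASN against B6 control, and 9.69% and 8.87% between the lines. In high FASN against B6 control hearts, 5 of 25 tested large subunit members rose, stalk included, and 1 fell (median 0.12), and 8 of 21 small subunit members rose and 1 fell (median 0.10). Between the lines 13 large subunit members rose and 1 fell (median 0.17), and 13 small subunit members rose and 1 fell (median 0.22). In low FASN against B6 control hearts the large subunit had 1 higher and 5 lower and the small subunit 0 higher and 3 lower, with medians of -0.05 and -0.06. Those 2 low FASN medians turned to 0.02 and 0.03 after quantile normalization. No test of a difference between the subunits was run.

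The largest called rise in high FASN hearts was that of Rps4x, an X-linked protein of the small subunit. It read 14964 and 13802 in high FASN, 11753 and 12057 in low FASN, and 11450 and 11080 in B6 control hearts. Both high FASN arrays lay above the other 4 arrays, and the low FASN arrays lay just above the controls. The difference from B6 control was 0.35 ± 0.0531 in high FASN (SE, limma adjusted p = 0.0025) and 0.08 in low FASN (adjusted p = 0.315). High FASN exceeded low FASN by 0.27 (adjusted p = 0.00785), a call that was lost after quantile normalization (0.09, adjusted p = 0.0806).

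Rps9, a small subunit protein near the channel through which the message enters, had the largest rise between the lines. It averaged 9281 ± 227 in high FASN, 6609 ± 41.9 in low FASN and 7436 ± 238 in B6 control hearts (SD, n = 2 each). The arrays of the 3 groups did not overlap, with high FASN on top and low FASN at the bottom. High FASN exceeded low FASN by 0.49 ± 0.0491 (SE, limma adjusted p = 0.000316) and B6 control by 0.32 (adjusted p = 0.00275), and both calls were made under all 4 scalings tried. The fall of 0.17 in low FASN against B6 control (adjusted p = 0.0328) was lost after quantile normalization (-0.06, adjusted p = 0.25). A second bright probe set of Rps9 differed little, by -0.04 in high FASN and -0.12 in low FASN against B6 control (adjusted p = 0.811 and 0.354), and by 0.08 between the lines (adjusted p = 0.561).

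Rpl41, a very short basic protein between the subunits, read 16259 and 15363 in high FASN, 13138 and 13202 in low FASN, and 13090 and 12750 in B6 control hearts. High FASN stood alone at the top, by 0.29 over B6 control (limma adjusted p = 0.00407) and 0.26 over low FASN (adjusted p = 0.00583). The call against B6 control held under all 4 scalings, while that between the lines was lost after quantile normalization. A second bright set of Rpl41 was called in neither comparison (0.27 and 0.34, adjusted p = 0.232 and 0.123). Rpl41, Rps4x and Rps9 were the 3 members called higher in high FASN than in B6 control hearts under all 4 scalings. Each single scaling called 5.79% to 8.18% of all tested probe sets higher there, and the share called under all 4 was not counted.

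**Figure D2:**
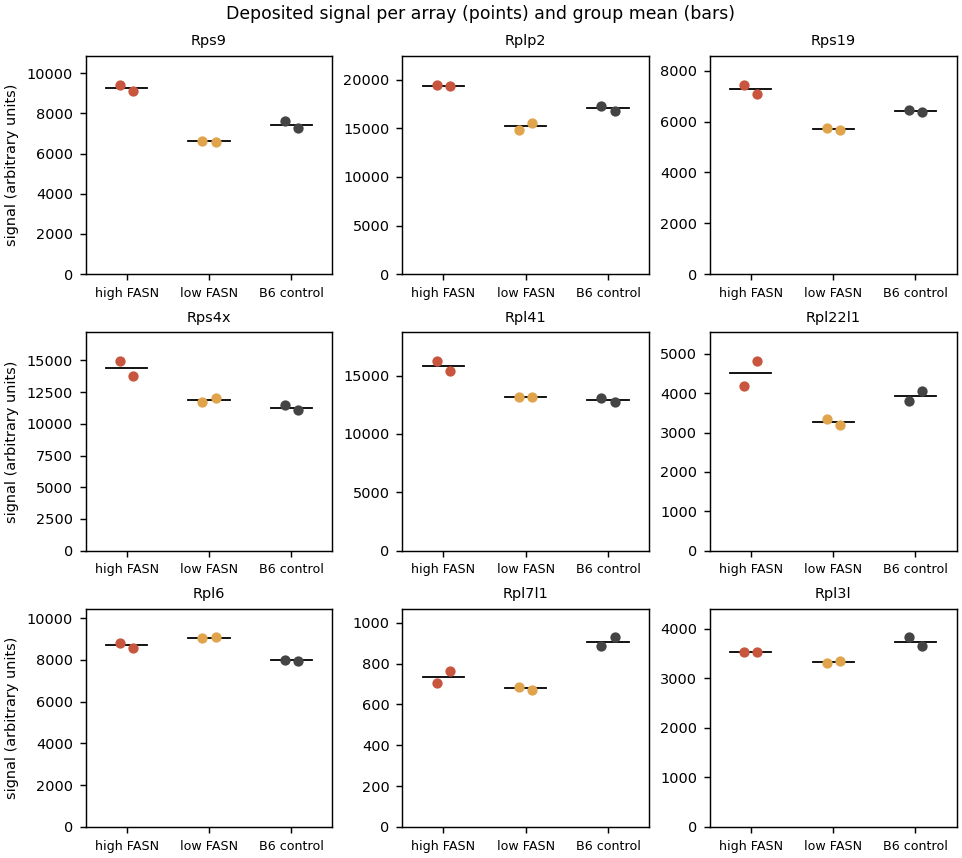
Deposited signal (y axis, arbitrary units, starting at 0) of 9 members on each array (points), with the group mean as a bar, for high FASN, low FASN and B6 control hearts. Rps9, Rplp2 and Rps19 are highest in high FASN and lowest in low FASN hearts as deposited, Rps4x and Rpl41 are higher in high FASN than in the other groups, and Rpl7l1 is lower in both lines than in B6 control.

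The other leading rises of high FASN hearts against B6 control were those of Rps28, Rpl22 and Rps10. Rps28, a small subunit protein, read 19143 and 17456 in high FASN, 15018 and 15352 in low FASN, and 15511 and 14566 in B6 control hearts, a rise of 0.28 over B6 control (limma adjusted p = 0.0109). Rps10, a protein of the small subunit head that is ubiquitinated on stalled ribosomes, averaged 18280 ± 508 in high FASN, 14507 ± 819 in low FASN and 15124 ± 1392 in B6 control hearts (SD, n = 2 each). Its rise over B6 control was 0.28 (limma adjusted p = 0.0254) and over low FASN 0.33 (adjusted p = 0.00929). Neither call on Rps10 was made after quantile normalization (adjusted p = 0.0917 and 0.197). A further bright set of Rps10 was called against B6 control on the deposited scale (0.21, adjusted p = 0.0465). Others were not, at 0.10, 0.07 and -0.255 (adjusted p = 0.229, 0.483 and 0.46). Median centring took away the calls of Rps28, Rpl22 and Rps10 against B6 control (0.25 each, adjusted p = 0.0766, 0.0601 and 0.112).

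The stalk recruits the translation factors that use GTP, through Rplp0 and the acidic protein Rplp2. Rplp2 read 19502 and 19300 in high FASN, 14801 and 15595 in low FASN, and 17346 and 16831 in B6 control hearts, without overlap between groups. It rose by 0.18 in high FASN (limma adjusted p = 0.032) and fell by 0.17 in low FASN (adjusted p = 0.0288), both against B6 control, and the lines differed by 0.35 ± 0.0476 (SE, adjusted p = 0.00134). After quantile normalization none of the 3 differences of Rplp2 was called, and that between the lines was 0.10 (adjusted p = 0.0759). Rplp0 read 19794 and 17037 in high FASN, 14979 and 15140 in low FASN, and 16518 and 15070 in B6 control hearts, and only its difference between the lines was called (0.29, adjusted p = 0.0241). The call on Rplp0 was lost after quantile normalization (0.05, adjusted p = 0.425), median centring (adjusted p = 0.0816) and cyclic loess (adjusted p = 0.063).

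Rps19, a small subunit protein whose human gene is mutated in Diamond-Blackfan anaemia, read 7455 and 7098 in high FASN, 5740 and 5667 in low FASN, and 6472 and 6365 in B6 control hearts. The 3 groups did not overlap. High FASN exceeded low FASN by 0.35 ± 0.0492 (SE, limma adjusted p = 0.00165), and this call held under all 4 scalings, with 0.27 as the smallest value. Against B6 control it was higher in high FASN by 0.18 (adjusted p = 0.0389) and lower in low FASN by 0.17 (adjusted p = 0.0328). The first was not called after median centring (0.15, adjusted p = 0.196), and the second was not called under any other scaling, where it lay between -0.18 and -0.08.

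The members called higher in high FASN than in low FASN hearts under all 4 scalings numbered 6, namely Rpl10a, Rpl19, Rpl22l1, Rpl7a, Rps19 and Rps9. Each single scaling called 7.56% to 9.69% of all tested probe sets higher there, and the share called under all 4 was not counted. Rpl19, which helps to bridge the subunits, read 13029 and 11225 in high FASN, 9842 and 9655 in low FASN, and 11542 and 11067 in B6 control hearts. The difference of Rpl19 between the lines was 0.31 ± 0.068 (SE, limma adjusted p = 0.0128). Rpl37a, a zinc-binding protein of the large subunit, differed by 0.35 between the lines (adjusted p = 0.0118) with high FASN arrays of 17248 and 14418 against 12594 and 12214 in low FASN hearts, and was not called after quantile normalization (0.15, adjusted p = 0.0596).

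Rpl6, a large subunit protein, was the only member called higher in low FASN than in B6 control hearts on the deposited scale. It read 8832 and 8566 in high FASN, 9047 and 9082 in low FASN, and 8007 and 7945 in B6 control hearts. Both lines lay above the controls on every array. The rise in low FASN was 0.18 ± 0.046 (SE, limma adjusted p = 0.0173), and high FASN was higher by 0.12 (adjusted p = 0.109). Median centring took the low FASN call away (0.17, adjusted p = 0.101), while quantile normalization and cyclic loess kept it at 0.27 each.

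Several members are paralogues of other ribosomal proteins. Rpl7l1, a paralogue of the large subunit protein Rpl7, read 704 and 763 in high FASN, 687 and 672 in low FASN, and 887 and 929 in B6 control hearts. Both lines lay below the controls on every array. It fell by 0.30 ± 0.0784 in high FASN (SE, limma adjusted p = 0.0316) and by 0.41 in low FASN (adjusted p = 0.00481). Rpl7l1 was the only member called lower in either line than in B6 control under all 4 scalings. The share of all tested probe sets called so was not counted. On its brightest probe set Rpl7 itself differed by 0.15 in high FASN and -0.03 in low FASN against B6 control (adjusted p = 0.1 and 0.776). Another bright set of Rpl7 was higher than B6 control by 0.32 in high FASN (adjusted p = 0.00743). A further bright set was higher by 0.36 in low FASN (adjusted p = 0.0141).

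Rps4l, a paralogue of Rps4x, read 574 and 481 in high FASN, 699 and 709 in low FASN, and 681 and 656 in B6 control hearts. High FASN lay below the other groups on both arrays, by 0.34 ± 0.0971 from B6 control (SE, limma adjusted p = 0.0461), while Rps4x was higher there by 0.35. Median centring moved that fall of Rps4l just past the threshold (-0.37, adjusted p = 0.0518). Against low FASN, Rps4l was lower by 0.41 (adjusted p = 0.0177) under the deposited scaling, and this call was made under all 4 scalings.

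Rpl22l1, a paralogue of Rpl22, read 4192 and 4822 in high FASN, 3334 and 3201 in low FASN, and 3795 and 4053 in B6 control hearts. The 3 groups did not overlap. It was lower in low FASN than in B6 control by 0.26 ± 0.072 (SE, limma adjusted p = 0.026) and higher in high FASN than in low FASN by 0.46 (adjusted p = 0.00276). The first of these calls was made with median centring but not with quantile normalization (-0.22, adjusted p = 0.055) or cyclic loess. Rpl22, which in mice is known to repress Rpl22l1, read 13825 and 12709 in high FASN, 11428 and 11292 in low FASN, and 11001 and 10858 in B6 control hearts. Its rise in high FASN against B6 control was 0.28 (adjusted p = 0.00753). A second bright set of Rpl22 was not called there (0.16, adjusted p = 0.11).

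Rpl3l, the form of Rpl3 that heart and skeletal muscle make, read 3539 and 3520 in high FASN, 3311 and 3346 in low FASN, and 3826 and 3656 in B6 control hearts. The groups did not overlap, and both lines lay below B6 control. It was lower than B6 control by 0.17 ± 0.0518 in low FASN (SE, limma adjusted p = 0.0424), and in high FASN the difference was -0.08 (adjusted p = 0.329). Each of the other 3 scalings took the low FASN call away. Rps27l, a paralogue of Rps27, showed no called difference, with 5989 and 5775 in high FASN, 6128 and 5982 in low FASN, and 5809 and 5872 in B6 control hearts. Rps27 itself was read only by a dim probe set, between 45.3 and 77.9.

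Rpl12, which binds at the base of the stalk, was also read only by a dim probe set. Its signals were 76.9 and 71 in high FASN, 146 and 127 in low FASN, and 75.5 and 95 in B6 control hearts. The low FASN arrays lay above the other 4, and high FASN was lower than low FASN by 0.76 ± 0.198 (SE, limma adjusted p = 0.0271), the largest called difference of any member.

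Some members are known for signalling roles besides translation. Rps6, the protein that S6 kinases phosphorylate, read 845 and 767 in high FASN, 671 and 750 in low FASN, and 753 and 805 in B6 control hearts, with no called difference. Rpl11, which binds the p53 regulator Mdm2, read 8476 and 9722 in high FASN, 9125 and 8996 in low FASN, and 9708 and 9050 in B6 control hearts, and the groups overlapped. Rps14, a protein of the small subunit platform, was lower in low FASN than in B6 control by 0.22 (limma adjusted p = 0.0139) and higher in high FASN than in low FASN by 0.25 (adjusted p = 0.00961), but the second value turned to -0.01 after quantile normalization, and the first was then not called (adjusted p = 0.0695). On their brightest probe sets Rps18, Rpl13a and Rps3 were called between the lines only, at 0.26, 0.23 and 0.22 (adjusted p = 0.00492, 0.0142 and 0.0313), and none of these 3 was called under all 4 scalings. Another bright probe set of Rps18 and one of Rpl13a were also called higher in high FASN than in B6 control, each by 0.23 (adjusted p = 0.0137 and 0.0283). A further bright set of each was not called there, at 0.15 for Rps18 and -0.07 for Rpl13a (adjusted p = 0.0934 and 0.66).

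The calls were next set beside how bright the probe sets were. All 13 rises of high FASN against B6 control and all 26 of high FASN against low FASN came from the 36 members with a mean log2 of at least 10. Among the 11 tested members below that level there was no rise in any comparison. Their SEs ran from 0.0784 for Rpl7l1 to 0.289 for Rps27, against 0.0451 to 0.0745 among the 36. Shifts as small as those of the bright members were therefore harder to call in them. The 458 other probe sets with a mean log2 of at least 13, with every ribosomal protein symbol left out, had medians of 0.10 in high FASN against B6 control, -0.11 in low FASN against B6 control and 0.19 between the lines. The 28 members of that brightness had medians of 0.14, -0.07 and 0.25. Of the 458 sets, 93 were called higher and 38 lower in high FASN against B6 control. In low FASN against B6 control 19 and 124 were called, and between the lines 237 and 19. The 28 members had 10 and 0, 1 and 3, and 20 and 0 in the same order. The hybridization controls, bacterial and phage transcripts added to each sample, moved the same way, with medians of 0.08, -0.19 and 0.27 over 18 probe sets. Their part in the shift of the members was not tested.

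**Figure D3:**
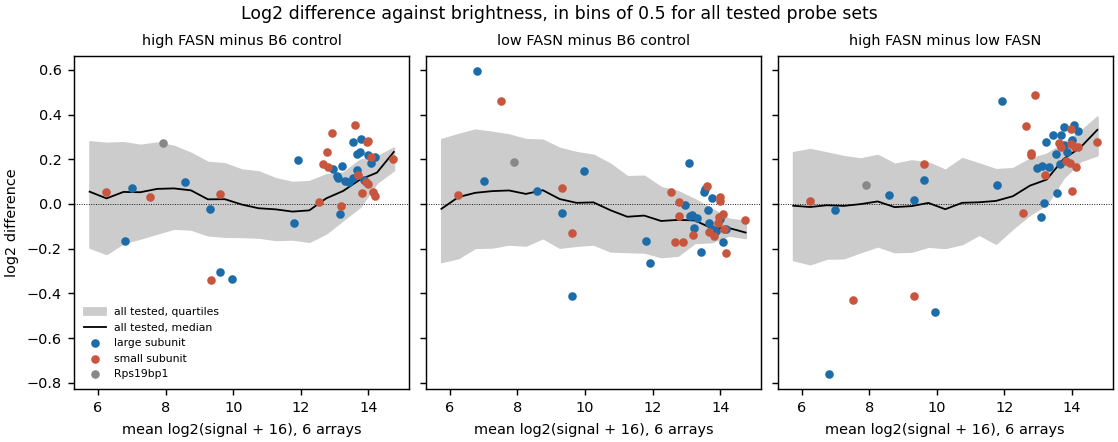
Log2 difference (y axis) of each tested member (points) against its mean log2(signal + 16) over 6 arrays (x axis), with the median (line) and quartiles (band) of all tested probe sets in bins of 0.5. Above a mean of 13 the median of all tested probe sets rises in high FASN against B6 control and against low FASN and lies below 0 in low FASN against B6 control, and most bright members lie near that line or above it.

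No scaling moved the median of all tested probe sets by over 0.1. Under quantile normalization the 458 other bright probe sets had medians of -0.003, -0.005 and -0.01 in the 3 comparisons, in the order just given, and the members had medians of 0.05, 0.03 and 0.04. Calls in high FASN against B6 control numbered 8 higher and 2 lower after quantile normalization (7.07% and 6.69% of all tested probe sets), 3 and 1 after median centring (5.79% and 6.31%), and 19 and 2 after cyclic loess (7.5% and 6.96%). Between the lines there were 13 and 2 after median centring (7.56% and 8.75% of all) and 16 and 3 after cyclic loess (8.79% and 9.25%). The sign was positive under all 4 scalings for 32 of 47 members in high FASN against B6 control and for 31 between the lines, but for 14 in low FASN against B6 control, where 15 were negative throughout. Signs across the scalings were not counted for all tested probe sets.

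**Figure D4:**
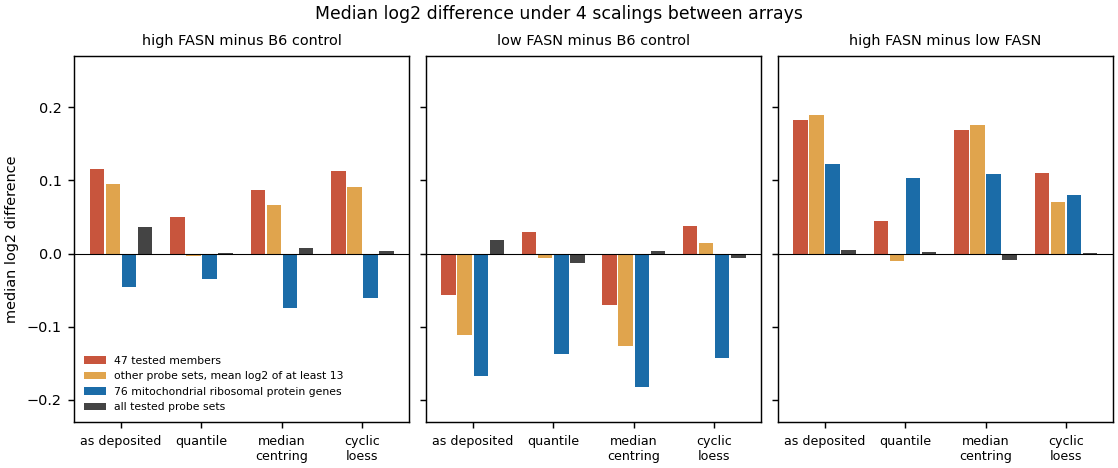
Median log2 difference (y axis) of the 47 tested members, of 458 other bright probe sets, of 76 mitochondrial ribosomal protein genes and of all tested probe sets, under 4 scalings between arrays (x axis), in 3 comparisons. The members' median stays above 0 in high FASN against B6 control (0.05 to 0.12) and against low FASN (0.04 to 0.18), and changes sign in low FASN against B6 control (-0.07 to 0.04).

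Further probe sets of the same genes were read as a second look at the members. Of 55 that were not the brightest of their gene, 44 were tested. In high FASN against B6 control 9 of them rose and 0 fell, against 8.18% and 6.18% of all tested probe sets. In low FASN against B6 control 6 rose and 3 fell (13.5% and 10.8% of all). Between the lines 17 rose and 4 fell (9.69% and 8.87% of all). The same shares apply to probe sets that join a ribosomal protein symbol with other symbols, which the rule leaves out. These gave 39 higher and 2 lower of 96 tested in high FASN against B6 control (median 0.17). They gave 9 and 11 in low FASN against B6 control, and 52 and 2 between the lines (median 0.23). Those sets overlap related sequences, and signal from ribosomal protein pseudogenes cannot be told apart on any of these probe sets.

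Probe sets of the same gene did not always agree in direction. Among 20 members with at least 2 tested probe sets, all of a gene's sets had the same sign for 12 in high FASN against B6 control, 10 in low FASN against B6 control and 9 between the lines. Rps9 in low FASN against B6 control, and Rpl13a, Rpl22 and Rps24 between the lines, had probe sets called in opposite directions. The contrary set was a dim one for Rps24, a small subunit protein, with 61.2 and 77.2 in high FASN, 255 and 245 in low FASN, and 68.8 and 105 in B6 control hearts. This dim set was higher in low FASN than in B6 control by 1.39 ± 0.215 (SE, limma adjusted p = 0.00162), whereas the brightest set of Rps24 differed by -0.11 there (adjusted p = 0.144). A contrary set of Rpl13a was bright, with 2027 and 2444 in high FASN, 2914 and 2868 in low FASN, and 2175 and 2524 in B6 control hearts, and was lower in high FASN than in low FASN by 0.37 (adjusted p = 0.0238). Averaging all probe sets of a gene instead of taking the brightest turned some called directions. Rps9 in low FASN against B6 control became 0.26, and between the lines Rpl41 became -0.24, Rpl13a -0.08, Rps10 -0.06, Rpl22 -0.06 and Rpl37a -0.03, while Rps10 in high FASN against B6 control became -0.02.

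Other genes linked to translation were read from lists, whose counts are set against the same shares of all tested probe sets as the subunits. One list held 19 translation factors and other genes taken as TOP messages, whose tracts were not checked here. Of these, 6 rose and 0 fell in high FASN against B6 control (median 0.13). In low FASN against B6 control 5 rose and 5 fell (median 0.01), and between the lines 7 rose and 2 fell (median 0.11). Pabpc1, the poly(A)-binding protein, read 7031 and 7249 in high FASN, 6632 and 6418 in low FASN, and 5550 and 5553 in B6 control hearts, higher in both lines by 0.36 and 0.23 (limma adjusted p = 0.00126 and 0.00723). Eef1a1, which delivers aminoacyl-tRNA, was higher by 0.28 in high FASN and 0.33 in low FASN (adjusted p = 0.0119 and 0.00334). Tpt1, a growth-related TOP message, was higher in high FASN than in low FASN by 0.42 (adjusted p = 0.00316). Of the ribosomal proteins outside the symbol rule, Fau rose between the lines by 0.35 (adjusted p = 0.00634) and Rpsa differed by 0.18 (adjusted p = 0.123).

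Ribosome biogenesis genes make and process ribosomal RNA and assemble the subunits. Of 34 tested such genes, 1 rose and 0 fell in high FASN against B6 control (median -0.04), 1 rose and 3 fell in low FASN against B6 control (median -0.10), and 5 rose and 1 fell between the lines (median 0.07). Nop14, which helps process small subunit RNA, rose by 0.52 in high FASN and 0.49 in low FASN (limma adjusted p = 0.0302 and 0.0266). Polr1b, a subunit of RNA polymerase I, read 137 and 103 in high FASN, 44.3 and 59.2 in low FASN, and 97.5 and 100.045 in B6 control hearts, lower in low FASN than in B6 control by 0.77 (adjusted p = 0.031).

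The mTORC1 list, whose pathway controls TOP messages, had 1 higher and 3 lower of 15 tested in high FASN against B6 control, 1 and 5 in low FASN against B6 control, and 3 and 2 between the lines. Ddit4, an inhibitor of mTORC1, read 1034 and 1058 in high FASN, 474 and 446 in low FASN, and 1533 and 1332 in B6 control hearts. It fell by 0.44 in high FASN and by 1.6 in low FASN (limma adjusted p = 0.00834 and 3.97e-06). Sesn1, which also restrains the pathway, fell by 0.77 in high FASN and by 0.40 in low FASN (adjusted p = 0.000103 and 0.00242). Of 8 genes of the Myc network, Mycn was higher in low FASN than in B6 control by 1.42 (adjusted p = 0.00071).

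Mitochondrial ribosomal proteins come from other genes and serve a separate ribosome. Of 76 tested, 2 rose and 6 fell in high FASN against B6 control (median -0.05), 5 rose and 32 fell in low FASN against B6 control (median -0.17), and 21 rose and 1 fell between the lines (median 0.12). Under the 4 scalings the low FASN median stayed between -0.18 and -0.14, while that of the cytosolic members ran from -0.07 to 0.04. Mrps34 read 3435 and 3074 in high FASN, 1648 and 1895 in low FASN, and 3052 and 3124 in B6 control hearts, lower in low FASN than in B6 control by 0.80 (limma adjusted p = 0.000137). No test of a difference between both families was run.

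Markers of cell types moved with the groups too. Across all tested probe sets, 8.18% rose and 6.18% fell in high FASN against B6 control. The shares were 13.5% and 10.8% in low FASN against B6 control, and 9.69% and 8.87% between the lines. Of 10 heart muscle markers, which are also very bright, 7 rose and 0 fell in high FASN against B6 control (median 0.24), 0 rose and 2 fell in low FASN against B6 control (median -0.13), and 8 rose and 0 fell between the lines (median 0.39). All 4 smooth muscle markers rose in both lines against B6 control, with summed signals of 11173 to 11437 in high FASN, 11074 to 11380 in low FASN and 5017 to 5196 in B6 control hearts. Of 8 fibroblast markers 6 rose in each line against B6 control. The summed signal of 4 adipocyte markers was 4162 to 4544 in high FASN, 1990 to 2045 in low FASN and 134 to 202 in B6 control hearts, and that of 5 airway markers was 3010 to 3206, 218 to 254 and 139 to 186 in the same groups. The 5 B cell markers summed to 433 to 489 in high FASN, 1943 to 1946 in low FASN and 66.9 to 152 in B6 control hearts, with Cd79a, Cd79b and Pax5 too dim to test. Their part in the differences of the ribosomal protein genes was not tested.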

How the data were processed

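Gene expression was measured on 6 Affymetrix arrays, 2 for each of high FASN, low FASN and B6 control hearts. The authors deposited 1 table of linear signal intensity per probe set, and the submitters' processing notes name GCOS, with no version, summary algorithm or scaling target stated there. The mean of every deposited column, trimmed by 2% at each end, was 300.002, so the deposited scaling was kept. Precision is limited by the number of arrays. Values were taken as log2(signal + 16), and 22519 of 45037 probe sets, those at or above the median brightness, were tested.

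All arrays entered 1 limma 3.58.1 fit in R 4.3.3, with a mean for each of 3 groups. Variances were moderated by eBayes along an intensity trend, which added 6.43 prior degrees of freedom to the 3 residual ones. Tests were two-sided, with Benjamini-Hochberg adjustment over all tested probe sets and a threshold of 0.05. The fit was tested on simulated data. Gene lists are described by counts and medians only. The members, lists and alternatives were chosen with earlier results of these data known. Named in full are the 6 largest rises and falls called in each comparison, the stalk genes, paralogue pairs and a panel of members, and from each list up to 3 genes with the smallest p. Of the paralogue pairs and the panel, genes with no single-symbol probe set were not analysed here. Fasn and Myh6 were added as checks of the labels. The dim probe set of Rps24 and the further ones of Rps18, Rpl13a, Rpl7, Rpl22, Rps10 and Rpl41 were chosen after their values were seen. Replicate numbers did not pair the arrays, since deviations of arrays with the same number correlated at 0.0396, 0.0273 and 4e-04. Alternatives were other scalings, pseudocounts, filters, variance models, probe set choices, the replicate number as a block and each array left out. Promoter sequences are RefSeq's on GRCm38.p6. Plots were made in Python 3.11.15 with matplotlib 3.10.9.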

Additional observations from a re-analysis of the deposited data

Results flagged for a closer look

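Rplp2, Rps19 and Rps9 were flagged for calls in opposite directions against B6 control hearts on the deposited scale. They were called higher in high FASN and lower in low FASN. The share of all tested probe sets called in both ways was not counted. Singly, 8.18% were higher in high FASN and 10.8% lower in low FASN against B6 control. Of 458 other probe sets with a mean log2 of at least 13, these calls numbered 93 and 124. The difference between the lines is made of these same differences from B6 control. Choosing genes by them favours a large value, so its adjusted p is no separate support. It is given here from limma over all tested probe sets. High FASN exceeded low FASN by 0.4886 on the log2 scale for Rps9 (adjusted p = 0.000316), by 0.3524 for Rplp2 (adjusted p = 0.00134) and by 0.3501 for Rps19 (adjusted p = 0.00165). For all 3 genes the fall in low FASN against B6 control was not called after quantile normalization, median centring or cyclic loess, so the calls in opposite directions rest on the deposited scaling, although the sign stayed negative. The difference between the lines was called under all 4 scalings for Rps9 and Rps19, and for Rplp2 under all but quantile normalization (0.1044, adjusted p = 0.0759). These values are from the brightest probe sets, and a second bright set of Rps9 differed between the lines by 0.08 (adjusted p = 0.561). In low FASN against B6 control, probe sets of Rps9 were called in opposite directions. Their mean was higher there, so the fall of Rps9 also rests on the probe set chosen.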

How the results depend on the processing

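Under quantile normalization, members called in high FASN against B6 control numbered 8 higher and 2 lower (median 0.0501), in low FASN against B6 control 8 higher and 1 lower (median 0.0297), and in high FASN against low FASN 6 higher and 4 lower (median 0.044). Median centring gave 3 higher and 1 lower, 0 higher and 3 lower, and 13 higher and 2 lower in the same order of comparisons, and cyclic loess gave 19 and 2, 7 and 1 (median 0.0372), and 16 and 3 (median 0.1108). In low FASN against B6 control, 12.2% of all tested probe sets were called higher and 10.5% lower after median centring. Quantile normalization and cyclic loess turned the sign of the low FASN median. Testing all probe sets with no filter on dim ones, which enlarges the set adjusted over, gave 5 and 0, 1 and 2, and 18 and 1. The shares of all probe sets that rose and fell were then 2.68% and 2.2%, 5.22% and 4.25%, and 3.36% and 3.08%. Without the intensity trend limma called 0 and 0 in high FASN against B6 control (7 higher and 2 lower at an unadjusted p below 0.05), 1 and 1 in low FASN against B6 control, and 1 and 1 between the lines. A fit on only the 4 arrays compared gave 5 and 0, 3 and 15, and 21 and 2. The shares of all tested probe sets in that fit were 5.62% and 4.65%, 15.7% and 13.2%, and 8.29% and 7.77%. A pseudocount of 64 gave 2 higher in low FASN against B6 control, and pseudocounts of 1 and 64 moved no other count. The mean of all probe sets of a gene gave 11 and 2, 5 and 8, and 16 and 3, with a median of 0.0824 between the lines. Over all 10536 genes tested with that mean, the shares were 7.35% and 5.07%, 11.5% and 9.79%, and 8.63% and 6.66%.

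That mean also turned the sign of Rps10 in high FASN against B6 control (-0.0234), of Rps9 in low FASN against B6 control (0.2604), and of Rpl13a (-0.082), Rpl22 (-0.0556), Rpl37a (-0.0259), Rpl41 (-0.2356) and Rps10 (-0.0637) between the lines. Quantile normalization turned Rps14 between the lines (-0.0055). The cause of these changes was not tested.

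Leaving out 1 array at a time gave 2 to 23 members higher and 0 to 2 lower in high FASN against B6 control, 0 to 2 higher and 1 to 15 lower in low FASN against B6 control, and 5 to 28 higher and 0 to 2 lower between the lines. The median lay between 0.1023 and 0.1672, between -0.0828 and -0.0451, and between 0.1476 and 0.2548 in the same order. A left-out array leaves its group with 1 array, which is assumed to vary like the others. The replicate number as a block gave 15 higher and 2 lower, 1 and 9, and 27 and 2, and took away no call among the named genes.

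2 alternatives were chosen after seeing the data. With only the members of a mean log2 of at least 10, the counts were 13 and 0, 1 and 7, and 26 and 0, with a median of 0.2424 between the lines. With the probe sets of several symbols in place of the members they were 39 and 2 (median 0.1691), 9 and 11, and 52 and 2. The shares of all tested probe sets beside both were 8.18% and 6.18%, 13.5% and 10.8%, and 9.69% and 8.87%. Without detection calls, closeness to background can be read off the signal alone, and it limits what can be said of Rps16, Rpl39l, Rps27 and Rpl12.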

Other observations

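Further lists and markers are given here as values. Shares of all tested probe sets that rose and fell were 8.18% and 6.18% in high FASN against B6 control. They were 13.5% and 10.8% in low FASN against B6 control, and 9.69% and 8.87% between the lines. Of 8 endothelial markers, 4 rose and 0 fell in high FASN against B6 control, and 5 rose and 0 fell in low FASN against B6 control. Of 7 macrophage markers, 0 rose and 2 fell in high FASN against B6 control, 2 rose and 1 fell in low FASN against B6 control, and 0 rose and 4 fell in high FASN against low FASN hearts. Cell division genes were dim, with 3 of 6 tested, and 2 of these rose in each line against B6 control. Of the Myc network, Mxi1, an antagonist of Myc, was the gene called lower in high FASN against B6 control (-0.39).

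Dim further probe sets of the members, with a mean log2 under 10, had medians of -0.13 in high FASN against B6 control, 0.26 in low FASN against B6 control and -0.45 between the lines over 11 tested. A dim set of Rpl41 read 58.1 and 68.7 in high FASN, 122 and 102 in low FASN, and 34.6 and 47.6 in B6 control hearts. It was higher in low FASN than in B6 control by 1.17 (limma adjusted p = 0.00566), while the brightest set of Rpl41 differed by 0.03 there. This set of Rpl41 was chosen after its values were seen.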
